A study of Oryctolagus cuniculus with 8 samples.

Results

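Cytosolic ribosomal proteins were followed in forebrain RNA of preterm rabbit pups through 115 array probes for 35 genes, of 43603 probes for 23372 genes and transcripts on the array. A probe belonged if the array's own annotation described its target as a ribosomal protein of the large (L) or small (S) subunit, and not as a mitochondrial protein, a kinase, a modifying enzyme or a pseudogene. The rule uses no measured value. Of the 35 genes, 20 encode proteins of the large subunit, 10 encode proteins of the small subunit, and 5 are paralogues or relatives whose descriptions carry the same words. RefSeq names were found for 31 genes (105 probes), and the other 4 (10 probes) kept the description on the array, such as S26-like. The RefSeq table lists 78 core cytosolic ribosomal protein genes, of which 40 had any probe here and 19 of those 40 lay outside the descriptions used.

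The pups were New Zealand rabbits taken by Caesarean section on day 29 of gestation, with term at day 32, and killed on postnatal day 14. The 4 dexamethasone pups had the synthetic glucocorticoid by intramuscular injection, 0.25 mg/kg 2 times a day over a maximum of 5 days, and the 4 reference pups had saline. The series' title asks about glucocorticoids and myelination, and ribosomal proteins are not named in it. Each RNA was amplified with T7 polymerase, which yields labelled RNA complementary to the mRNA, and 2 pups of the same group shared each of 4 two-colour arrays, odd numbers in Cy3 and even numbers in Cy5. The dexamethasone arrays were on 1 slide and the saline arrays on another, each with its own scan day. No slide held both groups (0 of 2), so that treatment, slide and scan day cannot be told apart in the differences that follow.

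A cytosolic ribosome is built from a small subunit, which reads the mRNA, and a large subunit, which joins the amino acids, and each core protein is normally present as 1 copy per particle. The mRNAs of these proteins start with an oligopyrimidine tract through which the kinase mTOR adjusts their translation, so much of their control acts on translation and need not show in mRNA levels. In the developing brain ribosome production is high in dividing progenitors and in growing neurons. Glucocorticoids act through a nuclear receptor that changes transcription.

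The readings depend on which stretch of a transcript, and which strand, a probe carries, so the 60-base probes that decide the results are shown first. Positions are on the assembly oryCun2. The first pair comes from the S26-like gene LOC100351264 on the minus strand of chromosome 13. The probes lie at chr13:35356080-35356139 and chr13:35356054-35356113, and capitals mark the 34 bases they share.
S26-like from base 224: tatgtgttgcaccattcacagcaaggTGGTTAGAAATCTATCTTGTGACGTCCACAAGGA
S26-like from base 250: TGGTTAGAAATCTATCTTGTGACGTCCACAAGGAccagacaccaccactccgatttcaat
The next pair belongs to RPL26L1, on the plus strand at chr3:54023703-54023762 and chr3:54023704-54023763. Capitals mark 58 bases that all 3 probes of the gene hold.
RPL26L1 from base 377: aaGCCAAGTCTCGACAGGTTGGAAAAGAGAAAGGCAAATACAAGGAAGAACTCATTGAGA
RPL26L1 from base 378: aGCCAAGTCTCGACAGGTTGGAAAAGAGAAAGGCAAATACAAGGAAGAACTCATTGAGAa
The pair after that belongs to RPS20, on the minus strand at chr3:71607803-71607862 and chr3:71607801-71607860, again with the shared 58 bases in capitals.
RPS20 from base 432: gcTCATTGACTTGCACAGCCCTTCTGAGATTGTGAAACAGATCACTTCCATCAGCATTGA
RPS20 from base 434: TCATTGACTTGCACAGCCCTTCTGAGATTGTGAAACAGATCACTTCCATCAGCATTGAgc
The last 3 concern the strand and have no position in the array's annotation. The first RPS9 probe carries the mRNA's own sequence. The second, designed on an expressed sequence tag read from the 3′ end of a cDNA clone, is its exact reverse complement over all 60 bases. The RPS13 tag probe comes from a read of the same kind, and its reverse complement ends in the 14 bases with which an RPS13 mRNA probe begins.
RPS9 probe of the mRNA: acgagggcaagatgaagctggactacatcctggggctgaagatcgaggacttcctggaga
RPS9 tag probe: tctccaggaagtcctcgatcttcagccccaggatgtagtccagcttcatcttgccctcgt
RPS13 tag probe: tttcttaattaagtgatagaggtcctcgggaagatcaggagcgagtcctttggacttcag

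Values are log2 normalised intensities, in which 1 unit is a doubling, and a difference is dexamethasone minus saline. The ribosomal protein probes were bright: 106 of 115 were well above background in all 8 samples, 112 in at least 4, and 3 in none. No spot was saturated. The scanner software had flagged many of the saline spots as non-uniform, and flagged spots were left out. Of the 115 spots of the set, 7, 6, 6 and 8 were flagged in dexamethasone 1 to 4, against 42, 10, 65 and 32 in saline 1 to 4, or 27 and 149 of 460 values per group. All bright spots shared this. Of the 953 with a mean of at least 14, 4.2% to 6.09% were flagged in the dexamethasone samples and 11.6% to 62.6% in the saline samples. A gene was tested if a probe well above background in at least 4 samples kept at least 3 values in each group, which 21 of the 35 genes (58 probes) did. The other 14 genes could be tested only with flagged spots kept. The part of spot quality in the results was not tested beyond that comparison.

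**Figure D1:**
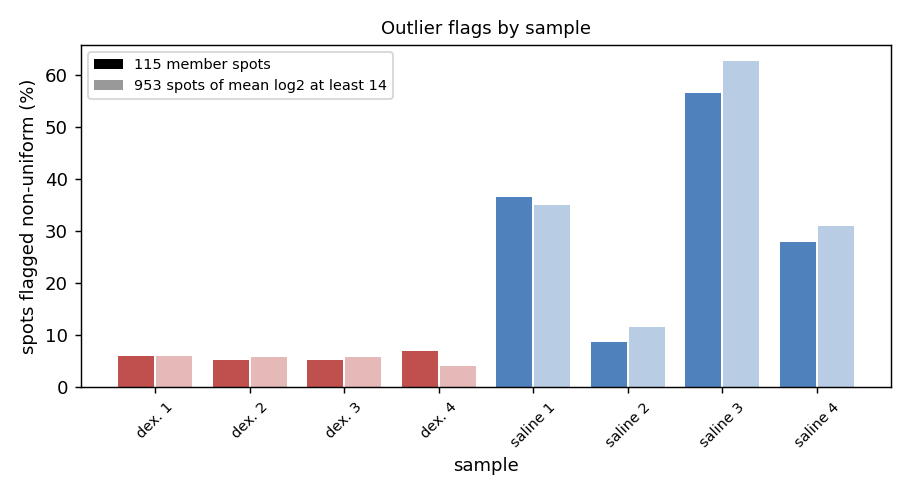
Share of spots flagged as non-uniform in each sample, in percent. Full bars are the 115 ribosomal protein spots and pale bars the 953 non-control spots with a mean log2 intensity of at least 14; the 4 dexamethasone samples (red) stand at 5.22% to 6.96% of the ribosomal protein spots and the 4 saline samples (blue) at 8.7% to 56.5%.

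No cytosolic ribosomal protein gene differed between the groups at a p under 0.05 in limma after adjustment by the method of Benjamini and Hochberg (BH) over all 11238 genes tested. That threshold called 0 of 21 genes of the set, against 7 of all genes, or 0.0623%. At an unadjusted p under 0.05 there were 3 of 21 (14.3%), against 13.7% of all genes. The 3 were RPL7L1 and RPL7A, with higher values under dexamethasone (6.32% of all genes), and RPS27A, with lower values (7.4% of all genes). The groups did not overlap in 3 of 21 (14.3%), against 13.3% of all genes. These shares are near the background. Because forebrain RNA was measured in bulk, fewer cells of a type and less RNA per cell cannot be told apart in any of these values.

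Under the main normalisation the estimates were small, from -0.34 to 0.43, and lay on both sides of 0. Of the 21 genes, 13 lay above 0 (61.9%, against 54.3% of all genes) and 8 below, with a median of 0.017 against 0.023 for all genes. The median size of a difference, without its sign, was 0.061 in these genes and 0.15 over all genes. With flagged spots kept, it was 0.12 over all 35 genes of the set and 0.15 over all genes. For the 14 genes of the set tested only in that way it was 0.19. The median SE without flagged spots was 0.11 in the set and 0.13 over all genes. For 18 of the 21 genes the 95% interval lay inside a 1.5-fold change in either direction. The exceptions were RPS27A, RPL7L1 and RPL3. The 11 tested large-subunit genes had a median difference of 0.010, the 6 small-subunit genes 0.026 and the 4 paralogues 0.016.

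This near-zero median holds relative to the other genes under a normalisation that gives the arrays a common distribution. With each array only scaled to its 75th percentile the median was 0.54 in the set and -0.24 over all genes, and with no step between arrays it was 0.21 and -0.59. The deposited values, scaled per sample to a median of 1, gave 0.14 and 0.13. Under the main normalisation, 10 spike-in probes, which report RNA added at labelling, had a median difference of -0.39, against 0.017 in the set. Whether these bright transcripts as a class stood higher under dexamethasone depended on the scaling.

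**Figure D2:**
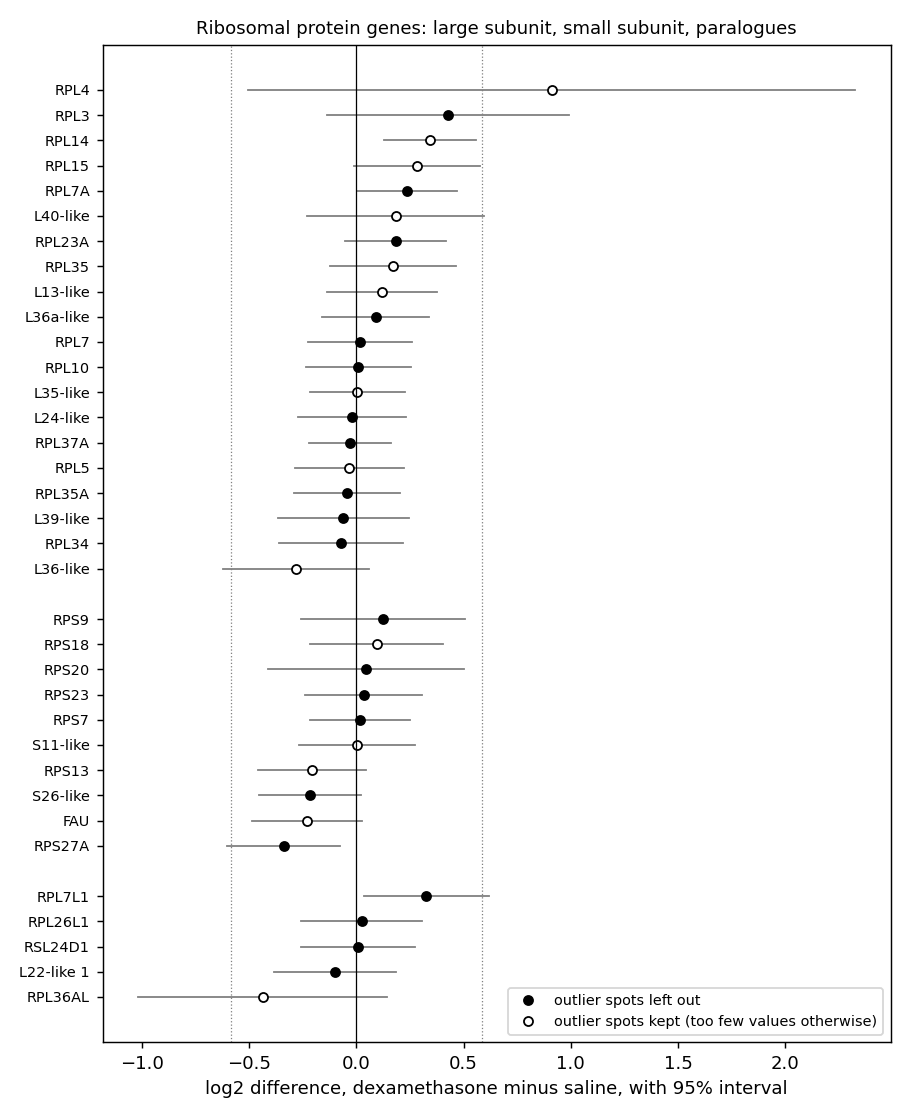
Log2 difference, dexamethasone minus saline, with its 95% interval for all 35 genes in the order large subunit, small subunit and paralogues. Filled points are the 21 genes tested without flagged spots, open points the 14 tested only with flagged spots kept, and dotted lines a 1.5-fold change; RPS27A, RPL7L1, RPL14 and RPL7A have intervals that leave out 0.

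Among the large-subunit proteins, RPL7A, a member of an RNA-binding family, had the smallest p. Its values were 16.77, 16.55, 16.76 and 16.62 in dexamethasone 1 to 4, against 16.44, 16.46 and 16.32 in saline 2 to 4, with the spot of saline 1 flagged. The groups did not overlap. The difference was 0.23 (SE 0.10, BH-adjusted p = 0.362 in limma, n = 4 and 3), and this gene has 1 probe.

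RPL23A, which sits where the growing chain leaves the large subunit, also had groups that did not overlap. Its values were 16.70, 16.73, 16.68 and 16.62 with dexamethasone, against 16.54, 16.56, 16.58 and 16.30 with saline. The dexamethasone values lay close together, and saline 4 was the lowest of all. The difference of 0.18 (SE 0.10, BH-adjusted p = 0.427 in limma, n = 4 each) came from a probe at base 464. The 5 overlapping probes from base 331 to base 335 gave -0.09 to 0.19 with flagged spots kept, on both sides of 0.

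RPL3, whose protein reaches into the peptidyl transferase centre, had the widest interval of the tested genes. It read 13.55, 13.27, 13.91 and 13.51 with dexamethasone, against 12.73, 13.13 and 13.45 in saline 1, 2 and 4. The groups overlapped, and saline 1 was the lowest. The difference was 0.43 (SE 0.24, BH-adjusted p = 0.435 in limma, n = 4 and 3), but 1.00 within Cy3 and 0.10 within Cy5. Without the array of saline 1 and 2 it was -0.065, a value that rests on saline 4 alone, since the saline 3 spot was flagged.

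The remaining tested large-subunit genes were L36a-like, RPL34, L39-like, RPL35A, RPL37A, L24-like, RPL7 and RPL10, and their differences ran between -0.069 and 0.090. RPL10, which completes the maturation of the large subunit, was at 0.010 (SE 0.10). RPL7 shows that the tested probe matters. Its probe at base 531 read 15.21 to 15.42 with dexamethasone and 15.17 to 15.64 with saline, but had 3 flagged saline spots. It was therefore represented by a probe at base 1091, which read 9.29 to 9.60 with dexamethasone and 9.44 to 9.52 with saline. Both gave a difference near 0, 0.0079 with flagged spots kept at base 531 and 0.018 at base 1091.

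Among the small-subunit proteins, RPS27A had the smallest p of the whole set. This gene encodes ubiquitin fused to S27a and so supplies both a ribosomal protein and ubiquitin. The values were 15.74, 15.92, 15.85 and 15.91 with dexamethasone, against 15.95, 16.20, 16.35 and 16.28 with saline. The groups did not overlap, and saline 1 lay just above dexamethasone 2. The difference was -0.34 (SE 0.11, unadjusted p = 0.0176 and BH-adjusted p = 0.325 in limma, n = 4 each), with -0.35 within Cy3 and -0.32 within Cy5. A second probe, which shares 39 bases with it, gave -0.21 (SE 0.13), and the other one, toward the 3′ end, gave 0.063 (SE 0.19).

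S26-like, LOC100351264, read 13.90, 14.17, 13.87 and 13.94 with dexamethasone, against 14.06, 14.16, 14.14 and 14.39 with saline. The groups overlapped through dexamethasone 2. Its difference was -0.22 (SE 0.10, BH-adjusted p = 0.376 in limma, n = 4 each). The other tested small-subunit genes, RPS9, RPS20, RPS23 and RPS7, lay between 0.017 and 0.12.

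Of the paralogues, RPL7L1, a relative of RPL7 whose yeast counterpart acts in assembly of the large subunit, was well above background in 7 of 8 samples, the fewest among the tested genes of the set. It read 8.99, 8.88, 9.12 and 8.72 with dexamethasone, against 8.82, 8.67, 8.45 and 8.45 with saline. The groups overlapped in dexamethasone 4 and saline 1. The difference was 0.33 (SE 0.13, BH-adjusted p = 0.353 in limma, n = 4 each). All 5 of its probes, which start at neighbouring bases, lay above 0, from 0.14 to 0.42. RPL26L1, L22-like 1 and RSL24D1, an assembly factor described on the array as L24-like, had differences of 0.025, -0.099 and 0.0067.

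One array changed the calls. With the array of saline 1 and 2 left out, which leaves 2 saline samples, RPS27A (-0.46, BH-adjusted p = 0.0175), RPL7L1 (0.48, BH-adjusted p = 0.0203) and RPL7A (0.28, BH-adjusted p = 0.0407) passed 0.05 in limma. That is 3 of 21 (14.3%), and the same fit called 19.3% of all genes. Its estimated correlation within arrays was -0.31, against 0.24 with all arrays. Between the Cy3 samples of a group's 2 arrays, the median absolute difference over the set's probes was 0.12 for dexamethasone and 0.27 for saline, while between the Cy5 samples it was 0.15 for dexamethasone and 0.17 for saline. Over all probes kept it was 0.16 for dexamethasone and 0.20 for saline in Cy3, and 0.15 for dexamethasone and 0.17 for saline in Cy5.

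**Figure D3:**
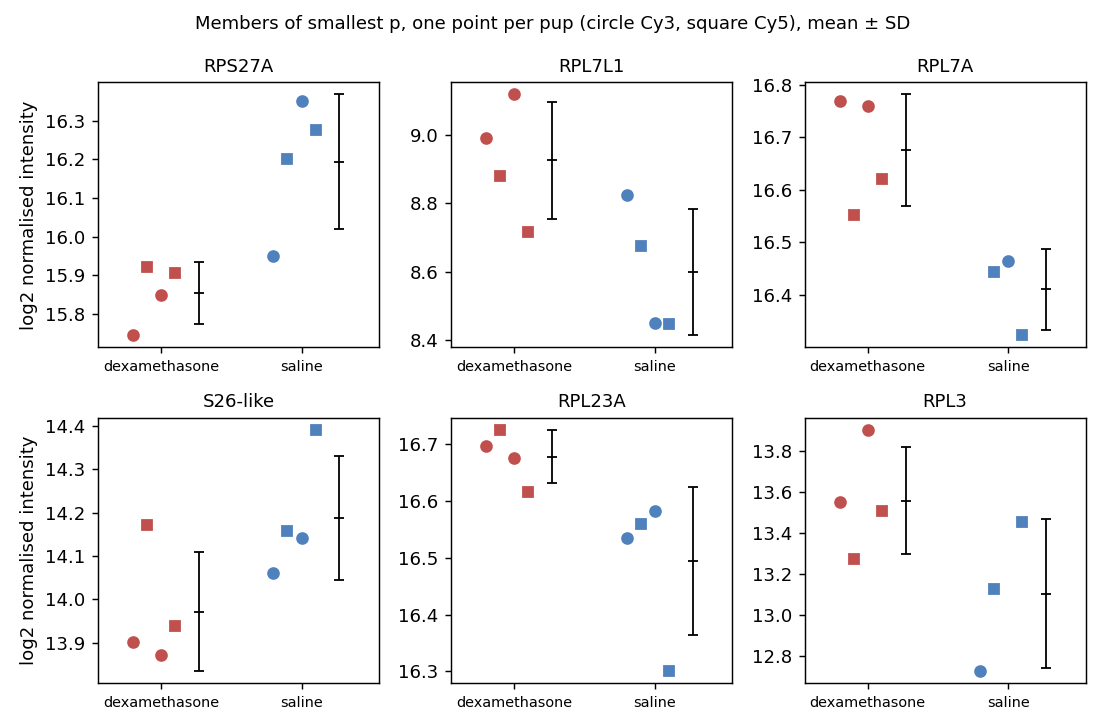
Log2 normalised intensity of the 6 tested genes of smallest p, 1 point per pup (circles Cy3, squares Cy5), with the mean and SD of each group beside its points. Dexamethasone stands left of saline; the groups do not overlap for RPS27A, RPL7A and RPL23A, and overlap for RPL7L1, S26-like and RPL3.

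With flagged spots kept, all 35 genes had a probe to test and again 0 were called in limma after BH adjustment, against 0.051% of all genes. At an unadjusted p under 0.05 there were 4 of 35 (11.4%), against 13.6% of all genes, and the groups did not overlap in 5 of 35 (14.3%), against 13%. The median was 0.0079. RPL14, a large-subunit protein, then had the smallest p of the set. Its values were 14.60, 14.51, 14.65 and 14.39 with dexamethasone, against 14.29, 14.17, 14.31 and 14.01 with saline, without overlap. The difference was 0.34 (SE 0.094, BH-adjusted p = 0.294 in limma, n = 4 each), and 3 of the 4 saline spots were flagged.

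Of the other genes tested only in this way, RPL15 read 15.38, 15.33, 15.41 and 15.16 with dexamethasone, against 15.15, 15.25, 14.88 and 14.88 with saline, a difference of 0.28 (SE 0.13). The groups overlapped on this probe. Its second probe, 1 base further on, gave 0.35 (SE 0.10, unadjusted p = 0.0074 and BH-adjusted p = 0.334 in limma, n = 4 each) without overlap, and both probes had 2 flagged saline spots. FAU, which encodes S30 fused to a ubiquitin-like protein, had a difference of -0.23 (SE 0.11), but its second probe, designed on a 5′ tag and outside the set, gave 0.016 (SE 0.11). RPL4 had the largest difference, 0.91 (SE 0.62), through 1 flagged spot. It read 15.86, 15.48, 15.83 and 15.31 with dexamethasone, against 15.31, 15.52, 12.87 and 15.14 with saline. RPL5, which with the 5S RNA can bind and hold back MDM2, was at -0.032 (SE 0.11).

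Neighbouring probes of 1 transcript measured how far a single probe can be read. There were 16 runs of probes whose starts lay within 10 bases of each other, with 67 probes in all, and they share most of their bases and the same samples. With flagged spots kept, the difference varied within a run by a median of 0.28, and in 12 of 16 runs the probes lay on both sides of 0. The SD of the differences within a run had a median of 0.12.

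RPL26L1 had the widest run. The probe at base 377 read 10.58, 11.16, 11.38 and 11.35 with dexamethasone, against 11.70, 11.93, 12.04 and 12.15 with saline, without overlap. Its difference was -0.84 (SE 0.19, unadjusted p = 0.00194 and BH-adjusted p = 0.263 over 20704 probes in limma). The probe that starts 1 base later read 11.62, 11.84, 11.64 and 11.59 with dexamethasone, against 11.55, 11.57, 11.64 and 11.81 with saline. Its groups overlapped, and its difference was 0.025 with 1 flagged saline spot left out. The last probe, 1 base further on, gave 0.017 with flagged spots left out. With flagged spots kept, 1 of the 3 probes lay above 0 and 2 below, so the sign of the last probe turned. These probes hold the same 58 bases, as printed above.

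RPS20, a protein of the small subunit's head, gave opposite signs 2 bases apart. The probe at base 434 read 16.13, 16.39, 16.32 and 16.32 with dexamethasone, against 15.49, 15.92, 16.08 and 16.07 with saline, and the probe at base 432 read 16.08, 16.29, 16.30 and 16.30 with dexamethasone, against 16.33, 16.45, 16.59 and 16.44 with saline. The groups did not overlap in either probe, with dexamethasone above saline at base 434 and below it at base 432. The differences with flagged spots kept were 0.40 (SE 0.15) and -0.21 (SE 0.11).

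RPL10 had 10 probes within 10 bases, on the minus strand of chromosome 7. With flagged spots kept, their differences ran from -0.44 to 0.35, with 8 above 0 and 2 below. At base 501 saline 1 and 2, on 1 array, read 15.93 and 15.87, and saline 3 and 4, on the other, read 14.97 and 15.01, while the dexamethasone samples read 15.99, 15.89, 15.63 and 15.66. At base 503 the order turned, with 14.81, 14.95, 15.41 and 15.19 for dexamethasone, against 15.14, 15.51, 15.88 and 15.61 for saline. Saline 3 and 4 lay below saline 1 and 2 at base 501 and above them at base 503. With 1 flagged saline spot left out, the difference at base 503 was -0.59 (SE 0.17, unadjusted p = 0.0103 and BH-adjusted p = 0.346 over all probes in limma). Pups that shared an array were not always closer. Over the set's probes, the median absolute difference was 0.18 and 0.10 within the 2 dexamethasone arrays. Between these arrays it was 0.12 in Cy3 and 0.15 in Cy5. For saline it was 0.12 and 0.16 within arrays, and 0.27 and 0.17 between them. Over all probes kept, the value was 0.20 and 0.18 within the dexamethasone arrays. It was 0.15 between saline 1 and 2 but only 0.049 between saline 3 and 4, so over all probes these 2 samples were much the closest pair on an array. Tested probe by probe, the set had 0 of 58 probes called (0.0338% of all probes) and 8 of 58 (13.8%) at an unadjusted p under 0.05 in limma, against 12.7% of all probes.

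**Figure D4:**
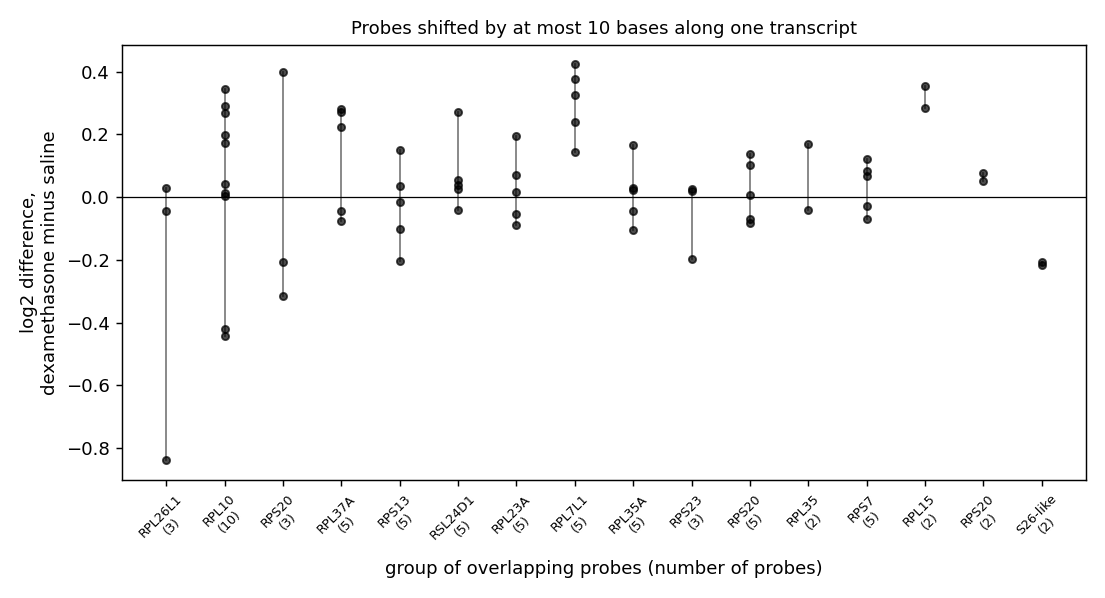
Log2 difference, dexamethasone minus saline, of each probe in the 16 runs of probes that start within 10 bases of each other, with flagged spots kept. Each point is a probe, lines join the lowest and highest of a run, and the number of probes stands in brackets; RPL26L1 spans -0.84 to 0.030 and RPL10 -0.44 to 0.35.

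Overlap in sequence did not secure a reading either. The 2 S26-like probes at bases 223 and 224 read between 13.59 and 14.39 in all samples. The 3 probes at bases 250 to 253 read 7.88 to 8.05 with dexamethasone and 7.91 to 8.07 with saline, and were not well above background in any of the 8 samples. They are the only 3 of the 115 probes of which this holds. The first of them shares 34 of its 60 bases with the bright probe at base 224.

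For RPS9, RPS13 and RPL4 a tag probe outside the set carried the opposite strand. The tag probe that matched the RPL4 probe over 52 bases is named on the array only by its tag, and it averaged 8.61 ± 0.18 with dexamethasone and 8.82 ± 0.16 with saline (SD, n = 4 each; tag EB376883), a difference of -0.21 (SE 0.15). The RPS9 probe of the mRNA read 15.57, 15.29, 15.63 and 15.19 with dexamethasone, against 15.68, 15.34, 15.00 and 15.16 with saline. Its reverse complement read 8.62, 8.95, 8.90 and 8.80 with dexamethasone, against 9.21, 8.78, 8.78 and 8.72 with saline. The groups overlapped on both, and the differences were 0.12 (SE 0.17) and -0.054 (SE 0.16).

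RPS13, a protein of the small subunit at a bridge to the large one, had a tag probe further from 0. That probe, which carries the opposite strand, read 8.62, 9.38, 9.11 and 9.09 with dexamethasone, against 9.59, 9.12, 11.95 and 10.92 with saline. Only saline 3 and 4, which shared an array, stood high. The difference was -1.35 (SE 0.59, unadjusted p = 0.0494 and BH-adjusted p = 0.391 in limma, n = 4 each).

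The 5 probes of the RPS13 mRNA, at bases 268 to 272, did not show it. They read 14.86 to 15.48 with dexamethasone and 14.91 to 15.70 with saline, with differences between -0.20 and 0.15 and flagged spots kept, since each had 2 flagged saline spots. The probe at base 272 read 15.21, 15.37, 15.41 and 15.21 with dexamethasone, against 15.43, 15.44, 15.65 and 15.50 with saline. The groups did not overlap on it, and the difference was -0.20 (SE 0.11). Another 5 probes designed on a second 3′ tag, which the array's annotation ties to the first, lie on the same strand as the tag probe and match it at 95.2% to 96.3% over 42 to 54 bases. They read 9.09 to 9.65 in saline 3 and 8.99 to 9.54 in saline 4, against 11.95 and 10.92 on the tag probe, and their differences ran from -0.30 to 0.24. On 1 of these second-tag probes saline 1 and 2 read 8.28 and 8.35, against 9.55 and 9.41 in saline 3 and 4. Its dexamethasone values ran from 8.70 to 9.51. A rise in saline 3 and 4 above all other samples as large as on the tag probe was seen on none of the 10 others for this gene.

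**Figure D5:**
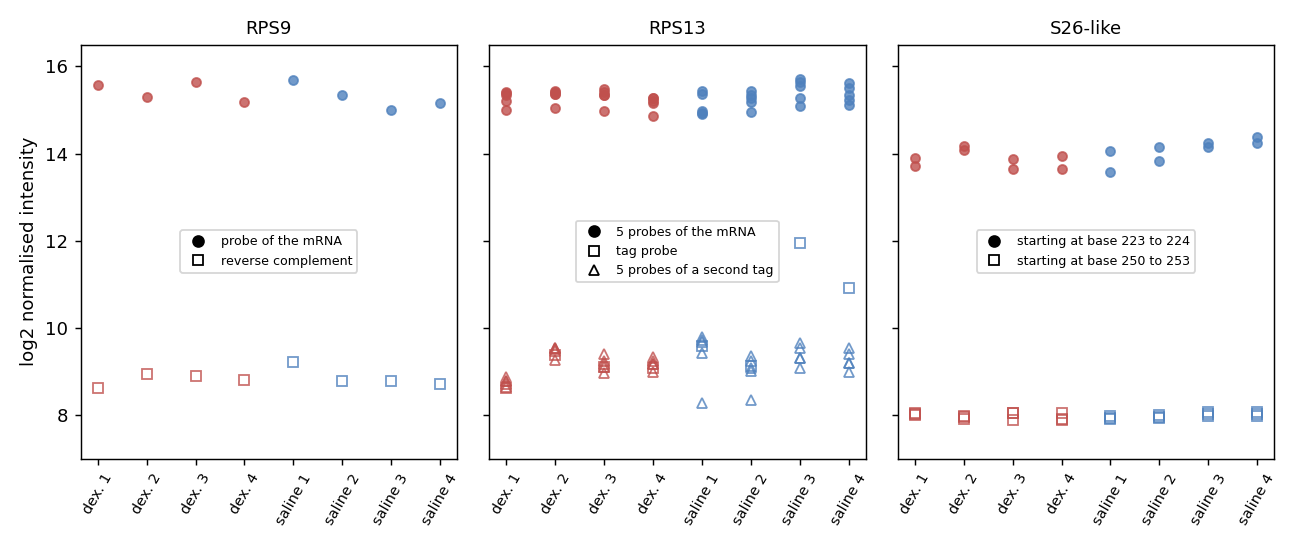
Log2 normalised intensity by sample, dexamethasone (red) left of saline (blue), for probes of RPS9, RPS13 and the S26-like gene. Filled circles are probes that read near 14 to 16; open squares and triangles are the reverse complement of the RPS9 probe, the RPS13 tag probe with 5 probes of a second tag, and the 3 S26-like probes at bases 250 to 253, and only the RPS13 tag probe stands high in saline 3 and 4.

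Cross-matching between probes of different names touched few members. For 4 genes (5 probes) another probe, under a different gene, transcript or tag name, matched on the same strand over at least 30 bases at 90% identity or more. A different name need not mean a different gene, since probes named only for a transcript matched RPL35 probes at 100%. RPL35 and L35-like matched at 96.7%, so their values may share signal. The 14 tested genes among the 19 core ribosomal protein genes outside the set, measured by tag probes, divided 7 above and 7 below 0, with a median of -0.00085, and 0 at an unadjusted p under 0.05. Among them, RPS3A, a protein of the small subunit, differed by -0.15 (SE 0.14). The strand that these tag probes carry was not checked, so their values need not report the mRNA.

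Genes around the ribosome were counted from lists of the translation machinery, and none was called at an adjusted p under 0.05 in limma. Beside the counts of these lists, 54.3% of all genes lay above 0, while 6.32% were higher and 7.4% lower with dexamethasone at an unadjusted p under 0.05, or 13.7% in either direction. Of 41 tested genes of ribosome assembly and rRNA processing, 25 lay above 0, and 2 (GNL3 and WDR43) were higher and 3 lower with dexamethasone at an unadjusted p under 0.05, near the share of all genes, with a median of 0.049. Those of smallest p were both lower. DKC1, the enzyme that makes pseudouridine in rRNA, averaged 10.38 ± 0.28 with dexamethasone and 10.79 ± 0.11 with saline (SD, n = 4 each), a difference of -0.40 (SE 0.12, BH-adjusted p = 0.311 in limma). NOP56, a core protein of the particles that methylate rRNA, averaged 11.98 ± 0.14 with dexamethasone and 12.27 ± 0.19 with saline (SD, n = 4 each), a difference of -0.29 (SE 0.10, BH-adjusted p = 0.331 in limma).

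Of 21 tested initiation factors, 13 lay above 0, and 1 (EIF2B5, at 0.28) was higher and 2 lower at an unadjusted p under 0.05, again near the share of all genes, with a median of 0.062. Of the 2 lower ones, EIF6, which keeps the large subunit from joining too early, differed by -0.37 (SE 0.14), and EIF2S1, the regulated subunit of the factor that brings the initiator tRNA, by -0.39 (SE 0.16). Of 9 elongation and termination factors, 2 were higher and 0 lower at the same threshold (6.32% and 7.4% of all genes), EEF2K at 0.64 (SE 0.25), the kinase that inhibits elongation factor 2, and ABCE1 at 0.31 (SE 0.13), which recycles ribosomes.

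Of 14 genes of mTOR signalling to translation, 12 lay above 0 (54.3% of all genes), 4 of them at an unadjusted p under 0.05 (6.32% of all genes), and the median was 0.19, against 0.023 for all genes. The groups did not overlap in 1 of the 14, against 13.3% of all genes. The list's mean deviation per sample ran from -0.016 to 0.18 with dexamethasone, against -0.24 to 0.026 with saline, and overlapped. The list was not split into activators and inhibitors, so these counts give no direction for the pathway. RPS6KB1, the kinase of ribosomal protein S6, averaged 10.79 ± 0.20 with dexamethasone and 10.20 ± 0.45 with saline (SD, n = 4 each), a difference of 0.59 (SE 0.22, BH-adjusted p = 0.347 in limma). MLST8, a shared subunit of both mTOR complexes, differed by 0.43 (SE 0.16, BH-adjusted p = 0.353 in limma). In a list of other transcripts with an oligopyrimidine tract, which also holds RPS27A, 6 were tested, and 2 lay above and 4 below 0, with a median of -0.17. Mitochondrial ribosomal proteins, which form a separate ribosome, divided 17 and 17 around 0 in 34 tested genes, with a median of 0.0011, 3 higher and 1 lower at an unadjusted p under 0.05, against 13.7% of all genes in either direction.

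Markers of cell makeup were read on the same arrays. Their lists were chosen with earlier results of these data known, so the counts describe these samples and are not independent evidence. Of 13 tested cell cycle genes, which mark dividing progenitors, all lay below 0 and 10 were lower at an unadjusted p under 0.05, against 7.4% of all genes, with a median of -0.39. Their mean deviation per sample ran from -0.30 to -0.079 with dexamethasone, against 0.13 to 0.26 with saline, without overlap. The ribosomal protein genes, by the same measure, ran from -0.055 to 0.068 with dexamethasone, against -0.074 to 0.046 with saline, and overlapped. Forebrain neuron markers, the labelled tissue's defining genes, were measured in 9 genes and divided 7 above and 2 below 0, with a median of 0.12. Astrocyte (7 tested), oligodendrocyte lineage (5), microglia (3) and blood cell markers (4) had medians of 0.10, 0.032, -0.15 and -0.094. Single blood cell markers ran from -0.93 to 0.53. At an unadjusted p under 0.05 in limma, 1 astrocyte and 1 oligodendrocyte lineage marker were higher, against 6.32% of all genes. Lower were 1 neuron, 1 astrocyte, 1 oligodendrocyte lineage and 2 blood cell markers, against 7.4% of all genes. The 10 spike-in probes, which report RNA added at labelling, were lower on the dexamethasone arrays by -0.55 to -0.30, with a median of -0.39. The part of cell makeup and of labelling in the ribosomal protein values was not tested.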

How the data were processed

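The deposited scanner files give the mean and median intensity of each spot and its local background, which Agilent Feature Extraction wrote. Its version is 11.0.1.1 per the file headers, while the submitters' processing notes name 10.7.3.1. They also give a processed signal, which the authors' software detrended and dye-normalised, per the file headers. The deposited series table holds, per spot, a signal that matched median minus background intensity divided by 1 constant per sample. The labels give each sample's dye, and that channel was used. The array design is 020908, and genes were named from its annotation and a RefSeq table of mOryCun1.1.

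Mean and background intensities were corrected with normexp (offset 50), normalised by loess within and Aquantile between arrays, and taken as log2 values per channel. Control spots had weight 0 in loess. Outlier spots were left out and replicate spots averaged. A probe had to be well above background in at least 4 samples. The probe with the highest mean among those with 3 values per group stood for a gene. Groups were compared with limma 3.58.1 in R 4.3.3, with a term for dye and a random block for array (consensus correlation 0.239). Adjusted p-values follow Benjamini and Hochberg over all genes tested. A simulation with 200 changed genes was used to test the fit. Precision is limited by having 4 arrays. The p-values measure the spread between these samples, which the design text calls biological replicates.

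Genes and lists were chosen with earlier results of these data known. The rule named the 20 members of smallest p, RPS13, RPL3, members whose probes lie on both sides of 0 by over 0.3, the member with the largest SD, and 2 genes per other list, of which 1 is not reported here. RPL14, RPL15, RPL4, RPL5, FAU, GNL3, WDR43, EIF2B5 and the tag probes were named after their values were seen.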

Additional observations from a re-analysis of the deposited data

Results flagged for a closer look

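In 2 of 32 groups of 4 samples, over the tested genes of the set with all 4 values, 1 sample lay far from the rest of its group relative to the group's range. Chance does this in about 1 in 20 groups. For RPL23A, saline 4 was the lowest of its group at 16.30, with the nearest other saline sample at 16.54. For L22-like 1, dexamethasone 1 was the lowest at 13.14, with the nearest other dexamethasone sample at 13.40. No explanation was tested for either.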

How the results depend on the processing

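The results were recomputed under 30 alternatives, 1 of them, the probe of a gene chosen before 3 values per group were asked for, chosen after the data were seen. No gene of the set was called under 28 of them. The exceptions were scaling to the 75th percentile (1 called, RPL7A) and leaving out the array of saline 1 and 2. With samples or arrays left out, 0 to 3 genes of the set were called, 0 to 6 were at an unadjusted p under 0.05, the set's median ran from -0.051 to 0.038, and 0 to 2164 genes were called in all. Called genes numbered 14 with the processed signals, 0 with no step between arrays, 2084 with scaling to the 75th percentile, 3 with all 8 samples well above background, 2 with no filter, 22 with no array block, 15 with no dye term and 21 at an adjusted p under 0.1. The genes of the set at an unadjusted p under 0.05 numbered 0 with no step between arrays, 1 with all 8 samples well above background, 5 with the mean over probes, 8 of 58 probes tested singly, and 0 at a threshold of 0.01. The set's median was -0.051 with the processed signals, 0.21 with no step between arrays, 0.54 with scaling to the 75th percentile and 0.14 with the deposited table. RPS27A turned to 0.23 with scaling to the 75th percentile. RPL7L1 turned to -0.85 with no step between arrays and to -0.51 with that scaling, and S26-like to 0.063 and 0.41. With the processed signals RPL7A was -0.025 and RPL23A -0.0090, and RPL23A was -0.0020 with the mean over its probes. With samples or arrays left out, RPL3 ran from -0.065 without the array of saline 1 and 2 to 0.63 without saline 4, and it was 0.64 with no step between arrays and 0.89 with scaling to the 75th percentile. The cause of these changes was not tested.

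Samples with the same replicate number, which also share a dye, did not deviate together (correlations from -0.13 to 0.10). With dye removed the correlations were all negative, from -0.27 to -0.10, so the numbers give no pairing. The replicate block called 1 gene in all and 0 of the set.

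Signal over background limited RPL7L1, whose probes were well above background in 5 to 7 of 8 samples, 1 RPL7 probe, in 7 of 8, and 3 S26-like probes, in none.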
